A study of Mus musculus with 2 samples.

Results

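The lysosomal genes described here are 44 of the 15576 genes in a table of FPKM values (reads per kilobase of gene and 1000000 reads) from cultured mouse macrophages. They were chosen by name: a gene is a member if its symbol in the table is one of 10 lysosomal proteases, 11 enzymes that degrade glycans, 7 lipid hydrolases with their cofactors and sterol carriers, 6 proteins of the lysosomal membrane, 9 subunits of the proton pump, or Tfeb. All 44 symbols were found, each once, and all 44 passed the filter of a mean of at least 1 FPKM over both libraries, which 9656 genes passed in all and which are called tested genes below.

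The cells were wild-type mouse bone marrow-derived macrophages, which grow in culture from marrow progenitors. For the DCA library the culture received deoxycholic acid, a bile acid made by gut bacteria, at 100 µM for 24 h, and for the NC library it did not. Strain, age, sex and number of animals were not stated in the sources used here, nor was what the NC cells received in its place. The labels leave unclear whether the cells were taken at the end of the 24 h or a day after it. The comparison asks which transcripts differ after exposure to the bile acid. With 1 library in each group there is no replicate check, no test and no p-value, and a difference between the libraries cannot be set against the spread between cultures.

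Lysosomes degrade proteins, glycans and lipids at low pH. Most of the enzymes are made in the endoplasmic reticulum, tagged with mannose 6-phosphate and carried to the lysosome by receptors, while a vacuolar proton pump, the V-ATPase, acidifies the lumen. Macrophages hold many lysosomes, because they digest what they engulf. The transcription factor TFEB and its relatives bind an E-box called the CLEAR element, found near the start of many lysosomal genes, and activate them.

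The promoters of the members were examined first, since many lysosomal genes are known to carry the CLEAR element. RefSeq windows (build GRCm38.p6) running from 250 bases before a gene's start to 50 bases after it were found for 37 of the 44 members. The letters GTCACGTG, the core of the CLEAR element, were searched on both strands. They occur in the windows of 10 of the 37 members (27.0%), against 2.55% of all 27025 genes with a window and 5.28% of the 7778 tested genes with one. The 37 members have 44 windows, and in 39 of these the bases 10 to 39 after the start occur in a GENCODE transcript of the gene. The windows of Atp6v0d1 and Lgmn that hold the letters are not among the 39. A match is a description of the letters and does not show that a factor binds there.

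The 13 occurrences are shown because they let the shared letters be read in their surroundings. Stretches are printed on the strand that RefSeq gives the gene, with the match in capitals. A match that starts with CAC lies on the opposite strand.
Atp6v0b (chr4:117887349-117887378, minus strand): tgtgcgcggggGTCACGTGgggtcggcgca
Atp6v0d1 (chr8:105566051-105566080, minus strand): gccctactgcgGTCACGTGagacgcggtgc
Ctsa (chr2:164833748-164833777, plus strand): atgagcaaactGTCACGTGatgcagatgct
Ctsa (chr2:164833767-164833796, plus strand): atgcagatgctCACGTGACcagagctacac
Ctsd (chr7:142387907-142387936, minus strand): cgcccgcgtctCACGTGACccgttgagggc
Ctsd (chr7:142388054-142388077, minus strand): tccccCACGTGACctgtatccagt
Gla (chrX:134601183-134601212, minus strand): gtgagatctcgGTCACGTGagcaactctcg
Glb1 (chr9:114401017-114401046, plus strand): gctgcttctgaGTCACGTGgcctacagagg
Lamp1 (chr8:13159122-13159151, plus strand): atgccgactggCACGTGACcacatcacgtg
Lgmn (chr12:102439125-102439154, minus strand): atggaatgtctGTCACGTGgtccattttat
Mcoln1 (chr8:3500435-3500464, plus strand): gggtcgcgcttGTCACGTGttcagttcagg
Mcoln1 (chr8:3500463-3500492, plus strand): ggcgccccgctCACGTGACcgcggcgcatg
Naglu (chr11:101070008-101070037, plus strand): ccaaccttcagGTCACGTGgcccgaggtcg
In Mcoln1, Ctsd and Ctsa the match occurs more than once in the window. In Atp6v0d1, Ctsa and Lamp1 a match starts within 30 bases of the gene's RefSeq start, and in Gla and Ctsd the farthest lie 196 and 245 bases upstream of it. The RefSeq start can lie inside the gene as GENCODE gives it, for example in Ctsa, Ctsd and Lgmn.

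The 250 bases before the RefSeq start of Ctsd, which encodes the aspartic protease cathepsin D, are given in full. It is the most abundant protease gene in this set and holds the match in 2 places. In the GENCODE annotation the gene reaches position 142388038, inside this window, so the match nearer the RefSeq start lies within the gene there.
Ctsd (chr7:142387828-142388077, minus strand): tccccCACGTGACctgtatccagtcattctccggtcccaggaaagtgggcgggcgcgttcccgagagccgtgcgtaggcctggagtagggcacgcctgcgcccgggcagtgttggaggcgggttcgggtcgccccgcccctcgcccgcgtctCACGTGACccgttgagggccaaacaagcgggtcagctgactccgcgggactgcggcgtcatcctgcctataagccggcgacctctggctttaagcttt

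In the libraries, these genes differed little and mostly in the same direction. Of the 44 members, 35 had a lower value in DCA than in NC and 9 a higher one, against 46.5% of all tested genes that were lower and 53.5% that were higher. The median ratio of DCA over NC was 0.980 (interquartile range 0.950 to 0.995), against 1.006 over all tested genes. No member was 1.2-fold apart in FPKM + 1, a size that 0.715% of tested genes reached on the lower side and 2.11% on the higher side. The direction depends on the reference. Relative to the median of all tested genes, 36 of the 44 lay lower and 8 higher. Relative to the median of 15 macrophage marker genes, which had a ratio of 0.940, 36 of the 44 members lay higher in DCA and 8 lower. The ratios of these 15 genes ran from 0.896 to 1.02.

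Whole reads could be rebuilt from the FPKM values, so each ratio has an exact 95% interval. The interval covers counting error alone, and reads that are PCR copies make the true error larger. The ratios of tested genes spread 2.63 times as widely (robust SD) as counting independent reads gives. Intervals of different genes that do not meet are therefore no test of a difference between them. The interval lay below 1 for 27 members (61.4%) and above 1 for 4 (9.09%), and it included 1 for 13. Without the 13 members whose exons overlap another annotated gene, it lay below 1 for 17 of 31. Over all tested genes the interval lay below 1 for 20% and above 1 for 25.7%. The members have more reads than most genes, from 1830 to 787709 in NC with a median of 26672.5, and narrow intervals exclude 1 more easily. Among the 6508 tested genes with at least as many reads as the least-read member, 47.4% were lower in DCA, and the interval lay below 1 for 22.1% and above 1 for 26.2%. This is only a floor, of 3426 reads over both libraries, and does not match those genes to the depth of the members.

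**Figure D1:**
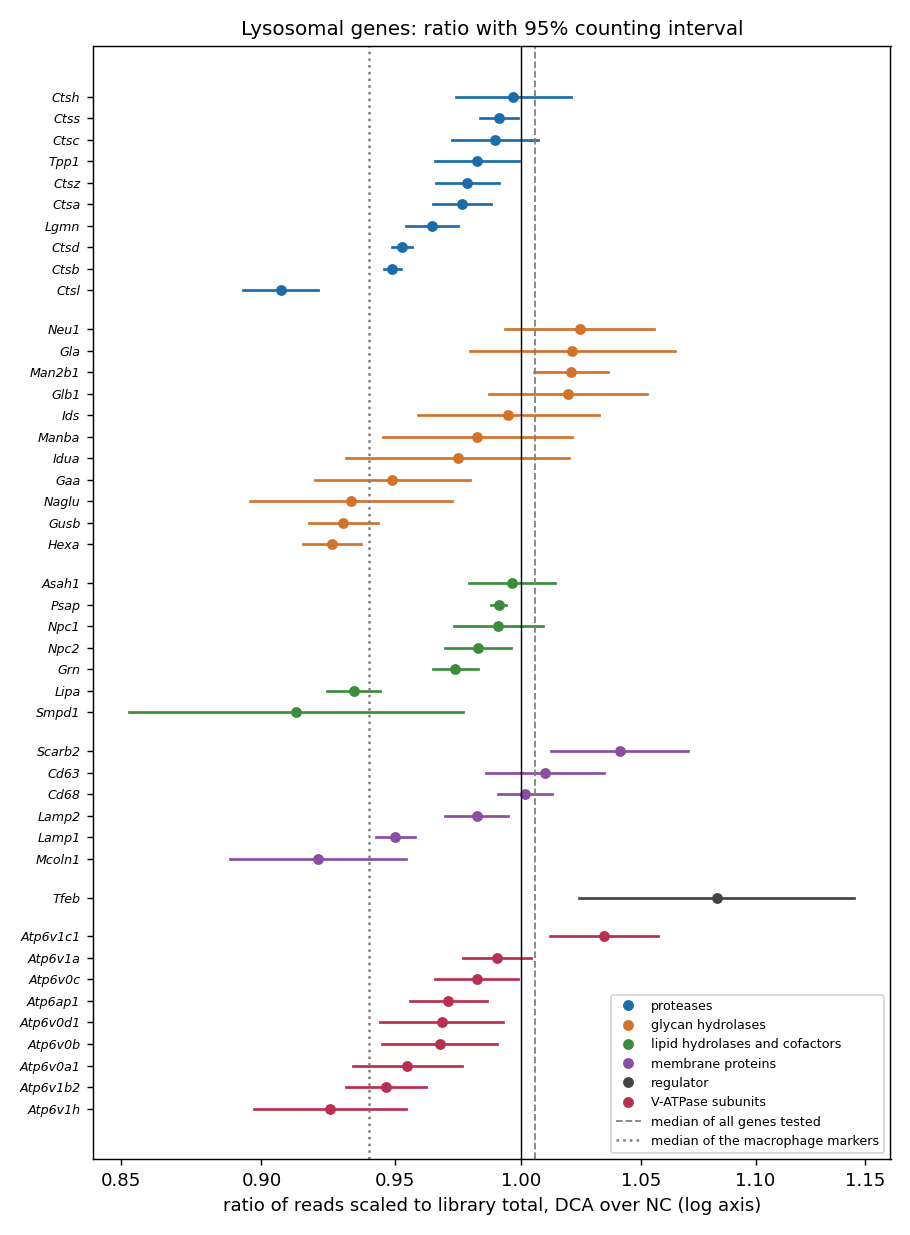
Ratio of reads scaled to library total, DCA over NC, on a log axis for the 44 lysosomal genes by class; points are single-library ratios, bars are 95% intervals for counting error alone, and the dashed and dotted lines mark the medians of all tested genes (1.006) and of the macrophage markers (0.940). Of the 44 points, 35 lie left of 1, but 36 lie right of the macrophage marker line, and all lie between 0.907 and 1.083.

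The libraries rest on 56.6 M reads in DCA and 59.2 M in NC (M for 1000000). Markers of several cell types differed between them as well. In these bulk samples, fewer cells of a type and less RNA per cell cannot be told apart. The macrophage markers were all above the filter, 15 of 15, and 12 were lower in DCA, with summed levels of 866 FPKM in DCA and 914 in NC. Neutrophil markers were higher in 17 of 17, with 4356 FPKM in DCA and 3690 in NC. B lymphocyte markers were higher in 10 of 10 tested of 12, with 196 and 158 FPKM over all 12. Eosinophil markers were higher in 6 of 6 tested of 8, with 121 and 83.7 FPKM, mast cell and basophil markers in 7 of 8, with 62.0 and 55.9, and dendritic cell markers in 7 of 8 tested of 11, with 236 and 208. T and NK cell markers summed to 4.52 and 3.07 FPKM, with 2 of 9 tested, both higher. Of these, Cd4 stood at 1.26 FPKM in DCA and 0.831 in NC. Cd3d and Cd3g were listed at 0 in NC, while Cd3e went the other way with 7 reads in DCA and 16 in NC. Trac and Ncr1 were not among the genes listed. Fibroblast markers summed to 0.450 and 0.305 FPKM with none tested, and Dcn and Pdgfra were listed at 0 in both libraries. The part of these cells in the lysosomal ratios was not tested.

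These 44 genes held 5.60% of all reads in NC and 5.42% in DCA. Summed over the members, the ratio of reads was 0.969 (95% interval 0.967 to 0.970). Summed over the 15 macrophage markers it was 0.967 (0.962 to 0.971). Apart from Tfeb, the classes ran from 0.957 for proteases to 0.985 for lipid hydrolases and cofactors on this measure. Levels of different genes are compared here as reads per kilobase of merged exons and 1000000 reads, since the length behind the deposited FPKM counts each annotated transcript of a gene anew. On this scale Psap was highest in NC at 4849, followed by Ctsd at 3831, Ctsb at 1830, Ctss at 1637, Cd68 at 881 and Lamp1 at 806. Tfeb was lowest at 7.32, below Smpd1 at 9.26 and Manba at 13.1. The 10 genes with the highest levels held 77.7% of the members' reads in NC, and 9 of them had a lower value in DCA, all but Cd68.

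**Figure D2:**
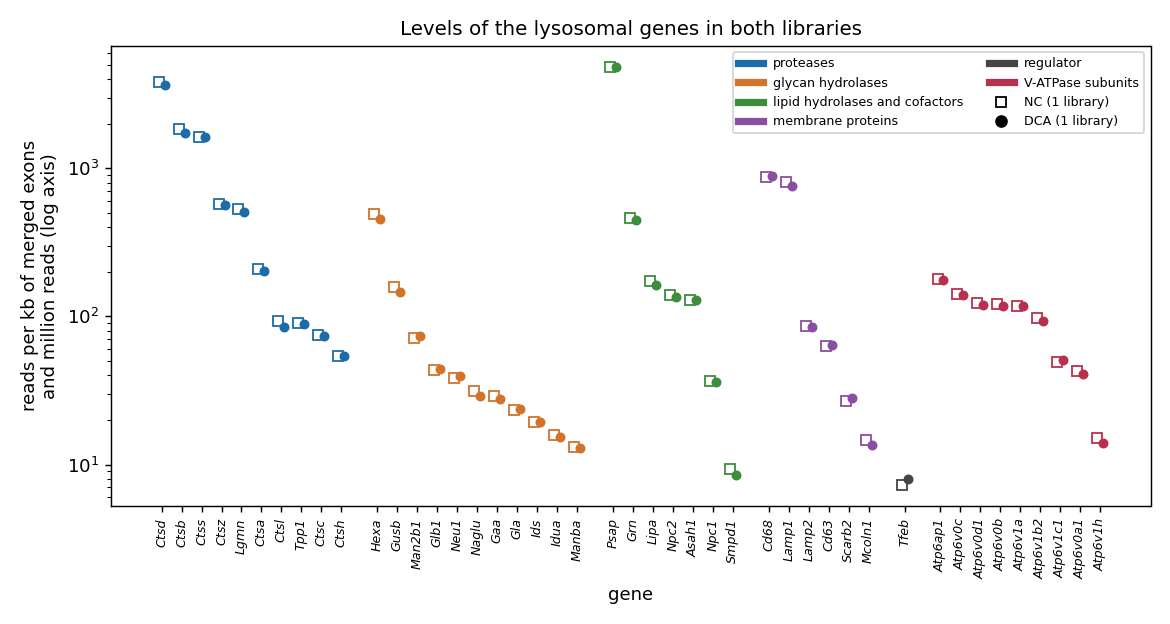
Reads per kilobase of merged exons and 1000000 reads on a log axis for each lysosomal gene in NC (open squares) and DCA (filled circles), 1 library each, ordered within class by the level in NC. The levels run from 7.32 for Tfeb to 4849 for Psap in NC, and the symbols of each pair nearly coincide.

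The proteases were lower in DCA in 10 of 10 genes, and their median ratio of 0.977 lay above the macrophage marker median. By summed reads, however, the proteases stood at 0.957, below the macrophage markers at 0.967. Of the 10, 8 had an interval below 1. On the log2(FPKM + 1) scale their median difference was -0.0327, and -0.0147 without the proteases whose exons overlap another gene. The member farthest from equality was Ctsl, which encodes the cysteine protease cathepsin L (ENSMUSG00000021477, GRCm38 chromosome 13, 64359337 to 64370890, minus strand). It stood at 53.9 FPKM in NC and 48.9 in DCA, from 35952 and 31160 reads, a ratio of 0.907 (0.893 to 0.921). Ctsl was thus 9.29% lower, and 8.01% of all tested genes had a lower ratio. It was the only member at least 1.1-fold apart by this ratio, where 8.34% of tested genes were on the lower side. Of its exon bases, 26.8% lie in exons of an antisense gene and a processed pseudogene for which there are no values, and reads of such genes cannot be told apart there.

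Of the abundant cathepsins, Ctsb and Ctsd had lower ratios than Ctss, with Ctsz between them. Ctsb, the cysteine protease cathepsin B, stood at 1625 FPKM in NC and 1542 in DCA, a ratio of 0.949 (0.946 to 0.952). Ctsd stood at 1941 FPKM in NC and 1850 in DCA, a ratio of 0.953 (0.949 to 0.957). Ctss, the cathepsin that trims the invariant chain of MHC class II, stood at 820 FPKM in NC and 813 in DCA, a ratio of 0.991 (0.983 to 0.999). The intervals of Ctsb and Ctsd, for counting error alone, did not reach that of Ctss. Ctsh, an aminopeptidase, stood at 22.68 FPKM in NC and 22.61 in DCA, a ratio of 0.997 (0.974 to 1.02). Ctsc, which activates granule serine proteases by removing dipeptides, stood at 55.54 FPKM in NC and 54.96 in DCA, a ratio of 0.990 (0.972 to 1.01). A difference was not detectable for Ctsh and Ctsc at this depth.

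The other proteases lay between these. Lgmn, the asparaginyl endopeptidase legumain that cleaves other cathepsins, stood at 266 FPKM in NC and 256 in DCA, a ratio of 0.965 (0.955 to 0.975). Ctsa, a carboxypeptidase that also protects Glb1 and Neu1 in a complex, Ctsz and Tpp1 had ratios of 0.976, 0.979 and 0.982. Their intervals lay below 1. In Ctsd, 34.4% of the exon bases are shared with Gm49369 on the same strand, which was listed at 0 in both libraries, and in Ctsb 12.8% lie opposite Fdft1, with 1584 reads in DCA and 1529 in NC. In Ctsa 17.4% lie opposite Pltp, with 2430 reads in DCA and 2112 in NC, and Neurl2, with 224 and 216.

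The enzymes of glycan breakdown were divided. Of the 11, 7 were lower and 4 higher in DCA, and their median ratio of 0.982 lay above the macrophage marker median. By summed reads, however, they stood at 0.962 (0.955 to 0.968), below the macrophage markers at 0.967 (0.962 to 0.971). The interval lay below 1 for 4 and above 1 for 1. Hexa, the alpha subunit of beta-hexosaminidase, which degrades the ganglioside GM2 (ENSMUSG00000025232, GRCm38 chromosome 9, 59539540 to 59565109, plus strand), stood at 491 FPKM in NC and 455 in DCA, from 58049 and 51373 reads. Its ratio was 0.926 (0.915 to 0.937), and 11.8% of tested genes had a lower one. Gusb, beta-glucuronidase, stood at 70.9 FPKM in NC and 65.9 in DCA, a ratio of 0.930 (0.918 to 0.943). Naglu, an enzyme of heparan sulfate breakdown, and Gaa, the acid glucosidase that degrades glycogen, had ratios of 0.933 (0.896 to 0.972) and 0.949 (0.920 to 0.979). These 4 enzymes act on different substrates.

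On the other side of equality, Neu1, the lysosomal sialidase, stood at 22.0 FPKM in NC and 22.5 in DCA, a ratio of 1.02 (0.994 to 1.06). Gla, alpha-galactosidase, stood at 21.6 FPKM in NC and 22.1 in DCA, a ratio of 1.02 (0.979 to 1.06). Man2b1, an alpha-mannosidase, stood at 43.96 FPKM in NC and 44.9 in DCA, a ratio of 1.02 (1.01 to 1.04), and its interval was the one above 1. Glb1, beta-galactosidase, had a ratio of 1.02 (0.987 to 1.05). Glb1 and Neu1, which share a complex with Ctsa, thus had intervals that included 1. That of Ctsa (0.965 to 0.988) lay below 1 but met that of Glb1, and did not meet that of Neu1. Ctsa had 58187 reads in NC, against 7686 for Glb1 and 8507 for Neu1. Ids, a sulfatase, Manba and Idua had ratios between 0.975 and 0.995 with intervals that included 1.

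The genes of lipid breakdown were lower in DCA in 7 of 7, and their median ratio was 0.983, again above the macrophage marker median. The interval lay below 1 for 5. Lipa, the acid lipase that frees cholesterol from its esters (ENSMUSG00000024781, GRCm38 chromosome 19, 34492318 to 34527474, minus strand), stood at 94.9 FPKM in NC and 88.7 in DCA, from 69916 and 62416 reads, a ratio of 0.934 (0.924 to 0.944). Smpd1, acid sphingomyelinase, stood at 5.82 FPKM in NC and 5.31 in DCA, a ratio of 0.913 (0.853 to 0.977). Smpd1 had the fewest reads of the members in DCA and NC, 1596 and 1830, and the widest interval on the lower side. Asah1, acid ceramidase, which acts on the ceramide that Smpd1 makes, stood at 62.4 FPKM in NC and 62.1 in DCA, a ratio of 0.996 (0.979 to 1.01).

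The cofactors and sterol carriers stood close to equality. Psap, the precursor of the saposins that present lipids to hydrolases, stood at 1010 FPKM in NC and 1001 in DCA, a ratio of 0.991 (0.988 to 0.994). Grn, progranulin, a partner of prosaposin, had a ratio of 0.974 (0.965 to 0.983). Npc2, which takes cholesterol from the lumen, and Npc1, the membrane protein that receives it, had ratios of 0.983 (0.970 to 0.996) and 0.991 (0.973 to 1.01). The lipase that frees cholesterol was therefore further below 1 than either carrier. Its interval, for counting error alone, did not reach theirs.

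The membrane proteins had no common direction, with 3 of 6 lower and 3 higher and a median ratio of 0.992. Their median difference on the log2(FPKM + 1) scale was -0.0116, and 0.0022 without Lamp1, whose exons overlap Grtp1. Mcoln1, the calcium channel TRPML1 (ENSMUSG00000004567, GRCm38 chromosome 8, 3500457 to 3515232, plus strand), stood at 8.52 FPKM in NC and 7.85 in DCA, a ratio of 0.921 (0.889 to 0.954). Lamp1, a major glycoprotein of the lysosomal membrane, stood at 757 FPKM in NC and 719 in DCA, a ratio of 0.950 (0.943 to 0.958). Lamp2, its relative with a role in autophagy, stood at 63.5 FPKM in NC and 62.4 in DCA, a ratio of 0.982 (0.970 to 0.995). The interval of Lamp1, for counting error alone, lay below that of Lamp2.

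Cd68, a macrophage-rich relative of the LAMP proteins, stood at 388.6 FPKM in NC and 389.2 in DCA, a ratio of 1.002 (0.991 to 1.01). The tetraspanin Cd63 had a ratio of 1.01 (0.986 to 1.03). Scarb2, or LIMP-2, which carries glucocerebrosidase to the lysosome, stood at 25.1 FPKM in NC and 26.1 in DCA, a ratio of 1.04 (1.01 to 1.07). It was the membrane protein gene whose interval lay above 1.

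Tfeb (ENSMUSG00000023990, GRCm38 chromosome 17, 47737030 to 47792419, plus strand) had the highest ratio of the 44. It stood at 2.80 FPKM in NC and 3.03 in DCA, from 2456 and 2541 reads, a ratio of 1.08 (1.02 to 1.15), and 83.0% of tested genes had a lower one. Its relatives Tfec, Tfe3 and Mitf, which are not members, were lower in DCA. Their ratios were 0.920 (0.857 to 0.987), 0.983 (0.953 to 1.015) and 0.994 (0.949 to 1.040). Among the 10 members with the GTCACGTG letters, the ratios ran from 0.921 for Mcoln1 to 1.02 for Gla, with a median of 0.966. The interval lay below 1 for 8 of these 10 and for 16 of the 27 members with a window that lacks the letters, whose median ratio was 0.982. It lay below 1 for 20% of all tested genes. The 8 include Lgmn and Atp6v0d1, whose windows with the letters are not among the 39 described above. Over all tested genes the median ratio was 0.996 for the 411 with the letters and 1.0055 for the 7367 without. These shares are descriptions and no difference between them was tested.

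The subunits of the proton pump were lower in DCA in 8 of 9, and their median ratio of 0.968 lay above the macrophage marker median. The interval lay below 1 for 7 of them and above 1 for 1. The pump has a V1 sector that hydrolyses ATP and a V0 sector in the membrane that moves protons. All 4 V0 subunits among the members were lower, with intervals below 1 and ratios between 0.955 and 0.982. Further V0 subunits, in the wider list below, were not all lower. Atp6v0a1, the large membrane subunit, stood at 12.9 FPKM in NC and 12.3 in DCA, a ratio of 0.955 (0.934 to 0.976). Atp6v0d1, which links the sectors, stood at 103.9 FPKM in NC and 100.6 in DCA, a ratio of 0.968 (0.945 to 0.993). The proteolipid genes Atp6v0b and Atp6v0c had ratios of 0.967 and 0.982.

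The V1 subunits among the members spread more widely, from 0.925 to 1.03. Atp6v1h, a regulatory subunit (ENSMUSG00000033793, GRCm38 chromosome 1, 5070018 to 5162529, plus strand), stood at 8.86 FPKM in NC and 8.20 in DCA, a ratio of 0.925 (0.897 to 0.954). Atp6v1b2, of the catalytic head, stood at 66.2 FPKM in NC and 62.7 in DCA, a ratio of 0.947 (0.931 to 0.962). Its partner in the head, Atp6v1a, stood at 54.2 FPKM in NC and 53.6 in DCA, a ratio of 0.990 (0.977 to 1.004). Atp6v1c1, which holds the sectors together, stood at 28.8 FPKM in NC and 29.7 in DCA, a ratio of 1.03 (1.01 to 1.06). The A and B subunits of the head are present in equal number in the pump. Their intervals did not meet, but these cover counting error alone and a difference was not tested. Atp6ap1, an accessory subunit, had a ratio of 0.971 (0.956 to 0.986).

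A further 101 lysosomal genes were taken from lists by function, of which 92 passed the filter. Of these 60 were lower and 32 higher in DCA, and the median ratio was 0.981, beside 0.980 for the 44. Of all tested genes 46.5% were lower, which is the background for the counts of each list below. The interval lay below 1 for 28 and above 1 for 6, where it lay below 1 for 20% and above 1 for 25.7% of all tested genes. The medians of these lists, like those of the classes above other than Tfeb, lay below 1 and above the macrophage marker median of 0.940.

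Among other proteases and their inhibitors, 5 of 8 were lower, with intervals below 1 for 3 and above 1 for 2. Ctsk, the collagen-degrading cathepsin K, stood at 12.98 FPKM in NC and 11.4 in DCA, a ratio of 0.875 (0.803 to 0.954), further from 1 than that of any of the 44. Dpp7, a dipeptidyl peptidase, had a ratio of 0.944 (0.910 to 0.979). At the other end stood Cst3, the secreted cathepsin inhibitor cystatin C, at 1.05 (1.03 to 1.07), and Prcp, a carboxypeptidase, at 1.05 (1.01 to 1.08). The cytosolic inhibitor Cstb had a ratio of 0.950 (0.926 to 0.974) and is named here after its value was seen.

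Other glycan hydrolases were lower in 8 of 14, and their median ratio was 0.985. The lowest was Man2b2, an alpha-mannosidase, at 0.921 (0.893 to 0.951). The highest were Arsb, a sulfatase, at 1.06 (1.004 to 1.1259) and Hyal2, a hyaluronidase, at 1.05 (0.960 to 1.15). In Arsb, 2411 of 6037 exon bases overlap other genes.

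Other enzymes and cofactors of lipid, phosphate, thioester and nucleic acid breakdown were lower in 9 of 13, and their median ratio was 0.963. Galc, which degrades galactosylceramide, had a ratio of 0.911 (0.880 to 0.943) and Plbd2, a phospholipase B-like protein, 0.931 (0.896 to 0.967). Acp5, the tartrate-resistant acid phosphatase, stood at 1.06 (0.965 to 1.17). Gm2a, the activator that presents GM2 to beta-hexosaminidase, stood at 1.04 (1.01 to 1.06), so the activator lay above equality and Hexa below it.

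Other membrane proteins were lower in 11 of 20, beside 46.5% of all tested genes. The interval included 1 for 16 of the 20 and lay below 1 for 3, beside 20% of all tested genes. Laptm4b, a transmembrane protein, had the lowest ratio at 0.903 (0.813 to 1.004), followed by the ion channel Tpcn2 at 0.935 (0.894 to 0.978). Sidt2 had the highest at 1.08 (1.05 to 1.11), followed by Tmem192 at 1.05 (0.983 to 1.11). The remaining pump subunits were lower in 5 of 9, and their median ratio was 0.994. Tcirg1, the membrane subunit known from osteoclasts, had a ratio of 0.948 (0.936 to 0.960) and Atp6v1e1 0.962 (0.935 to 0.989). Atp6v1f and Atp6v1g1 had the highest ratios, 1.03 (0.986 to 1.08) and 1.02 (0.990 to 1.04). The V0 subunits Atp6v0a2, Atp6v0e and Atp6v0d2 of this list had ratios of 1.008, 0.994 and 0.974, with intervals that included 1.

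The list of TFEB relatives and of the platform on which mTORC1 senses amino acids at the lysosome also held Gpnmb and Zkscan3. It was lower in 14 of 18 genes, Gpnmb and Zkscan3 among them, and the median ratio was 0.964. Of the 18, 9 had an interval below 1, Gpnmb among them. Rraga, a Rag GTPase, stood at 38.1 FPKM in NC and 33.5 in DCA, a ratio of 0.879 (0.837 to 0.922). Lamtor4, of the Ragulator complex that anchors the Rag proteins, stood at 28.1 FPKM in NC and 25.02 in DCA, a ratio of 0.889 (0.844 to 0.937). Lamtor1, of the same complex, went the other way at 1.07 (1.03 to 1.11), followed by Lamtor2 at 1.03 (0.962 to 1.09). In Lamtor1, 600 of 3215 exon bases overlap other genes. Genes of mannose 6-phosphate tagging and sorting were lower in 8 of 10, and their median ratio was 0.982. Gnptg, a subunit of the tagging enzyme, had the lowest ratio at 0.922 (0.848 to 1.001), followed by the adaptor Gga3 at 0.941 (0.906 to 0.978). Of the exon bases of Gnptg, 1113 of 2249 overlap other genes. The adaptor Gga1 and the receptor Sort1 were highest, at 1.02 (0.983 to 1.06) and 1.004 (0.978 to 1.03).

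**Figure D3:**
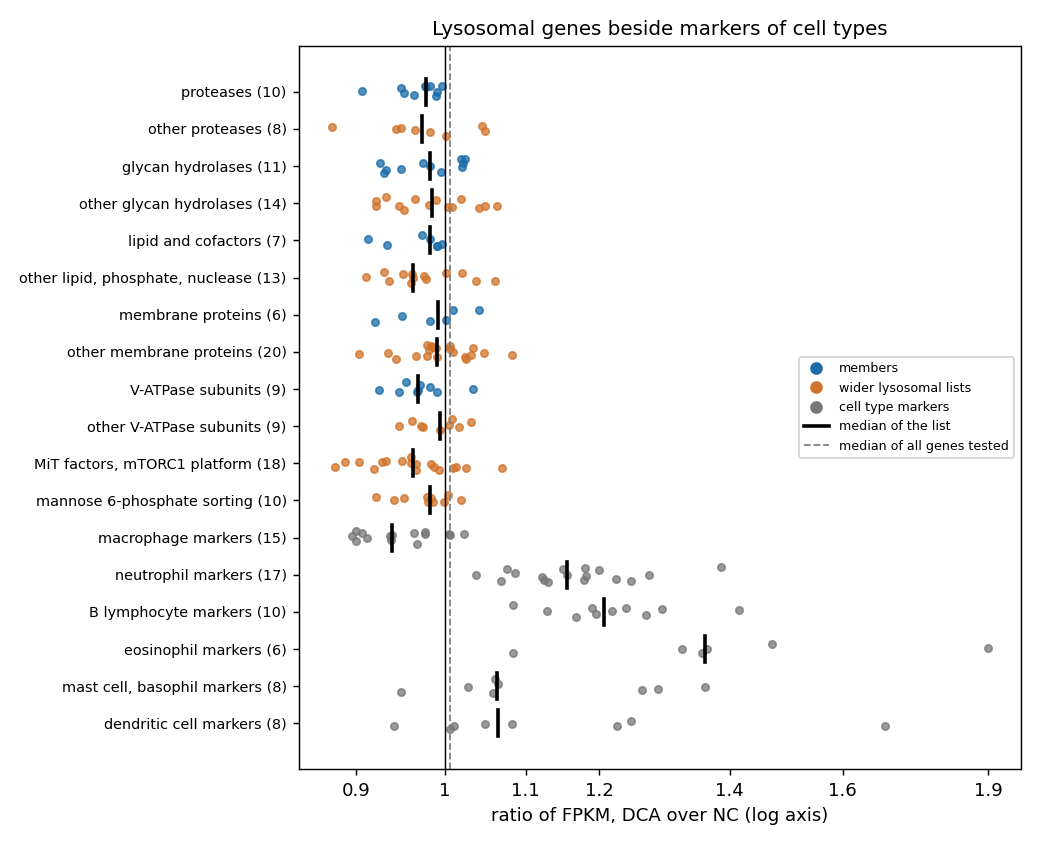
Ratio of FPKM, DCA over NC, on a log axis for tested genes of each list (number in parentheses): the lysosomal classes in blue, wider lysosomal lists in orange and cell type markers in grey, with a bar at each median and a dashed line at the median of all tested genes (1.006). The lysosomal medians lie between 0.963 and 0.994, right of the macrophage markers at 0.940 and left of the neutrophil markers at 1.15.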

How the data were processed

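Per the labels, RNA of mouse bone marrow-derived macrophages was sequenced in 2 libraries, DCA and NC. The authors deposited FPKM for 15576 genes. The submitters' processing notes name the build GRCm38 and the tools DESeq2 3.0, HTSeq 0.6.0, bedtools 2.17.0, Picard 1.126 and STAR 2.5.0c, without role or order. Gene length, strand setting and any filter were not stated in the sources used here.

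With the summed length of a gene's GENCODE M21 transcripts as its length, 11371 of 11794 genes under 5000 reads (96.4%) came out whole for DCA and NC alike (tolerance 0.05 reads). The read totals were then 56570555 in DCA and 59205366 in NC. Gla and Grn did not give whole reads, so their reads and levels are approximate.

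The difference was log2(FPKM + 1), DCA minus NC, where the mean of both FPKM values was at least 1. Ratios have exact Clopper-Pearson 95% intervals from the rebuilt reads (scipy 1.17.1). All ratios spread 2.63 times as widely (robust SD) as counting independent reads gives. Recovery and intervals were tested on simulated data. The simulated reads were independent, so this check does not cover the wider spread of the real ratios. Alternatives were other pseudocounts and filters, rebuilt reads, rescaling or centring, and leaving out genes whose exons overlap another gene. Letters were searched in RefSeq promoter windows on both strands. Members and lists were chosen with earlier results of these data known. Values are given for the 2 highest and 2 lowest members of each class or list and for members 1.1-fold apart; further members are described by role. The value of 1 gene that this rule names is not reported here.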

Additional observations from a re-analysis of the deposited data

How the results depend on the processing

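No paired analysis was possible because each group has 1 library. Values are differences in log2(FPKM + 1), DCA minus NC. As scaled by the authors, the medians were -0.0272 for the 44 members, -0.0327 for proteases, -0.0219 for glycan hydrolases, -0.0248 for lipid hydrolases and cofactors, -0.0116 for membrane proteins and -0.0461 for V-ATPase subunits. Pseudocounts of 0.1 and 5, rebuilt reads without a pseudocount, no filter, a mean FPKM of at least 5, rescaling to a common sum and centring on all tested genes left the sign of these 6 medians and, where they apply, both counts of intervals within 1.5 times. Some medians moved further: to -0.0418 for the members, -0.0379 for glycan hydrolases, -0.0382 for lipid hydrolases and cofactors and -0.0251 for membrane proteins with rescaling, to -0.0184 for membrane proteins with centring on all tested genes, and for glycan hydrolases to -0.0140 with a pseudocount of 5 and -0.0145 with the filter of 5 or without overlapping genes. Centring on the macrophage markers, whose median was -0.0878, turned the sign of all 6, to 0.0605, 0.0551, 0.0659, 0.0630, 0.0762 and 0.0417 in the same order. The interval then lay below 1 for 2 members and above 1 for 32. It also turned 19 members with intervals below 1: Psap 0.0748, Ctss 0.0748, Npc2 0.0630, Tpp1 0.0625, Lamp2 0.0623, Atp6v0c 0.0622, Ctsz 0.0565, Ctsa 0.0537, Grn 0.0495, Atp6ap1 0.0461, Atp6v0d1 0.0417, Atp6v0b 0.0414, Lgmn 0.0360, Atp6v0a1 0.0261, Gaa 0.0184, Ctsd 0.0181, Lamp1 0.0144, Ctsb 0.0124 and Atp6v1b2 0.0101. Without the 13 members whose exons overlap another gene, the median was -0.0147 for proteases and turned to 0.0022 for membrane proteins, and 17 of 31 members had intervals below 1; fewer genes enter these values. Depth limits Tfeb and Smpd1 most, with the fewest reads.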
